A study of Mus musculus with 4 samples.

Results

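The 10 genes described here, Sox9, Lhx2, Nfatc1, Tcf7l1, Tcf7l2, Foxc1, Tbx1, Runx1, Nfib and Gata6, encode transcription factors of hair follicle stem cell identity. They were taken by name, under a rule that uses none of their values, from 18193 genes measured on mouse expression arrays, though with earlier results of these data known. All 10 were on the array, with 34 probe sets out of 45101, and no member probe set carried a further gene symbol. Each gene was read from its probe set of highest mean over the 4 arrays, and the other 24 probe sets are shown beside it.

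Hair follicle stem cells (HFSCs) were sorted by flow cytometry from C57BL/6 mouse skin at postnatal day 4. The 2 KO arrays carried RNA of cells labelled miR-205 KO and the 2 WT arrays RNA of wild-type cells, and nothing else in the labels separates the groups. The treatment text of all 4 samples describes doxycycline induction of miR-203 in K14-rtTA/TRE-miR-203/K14-H2BGFP mice, which is a different system, so the alleles, the reporter and the gate of the sort cannot be told from it. The labels call the replicates biological but give neither animals nor pools, and p-values therefore measure only the spread between these samples, which may be technical.

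A hair follicle stem cell is held in its state by a set of factors that act on one another's genes. SOX9 specifies the cells and LHX2, TCF7L1 and TCF7L2 keep them undifferentiated, while NFATC1, FOXC1 and TBX1 are tied to quiescence or self-renewal and RUNX1 to the start of growth. In the mouse the adult stem cell niche, the bulge, takes its final form only after the first hair coat has grown, so cells at this age are its precursors. The microRNA named in the KO label, miR-205, is abundant in skin epithelium and pairs with transcripts mainly through its seed, bases 2 to 8 of the mature strand. Both mature strands are shown because they are the products of the gene that the KO label names, with the seed in capitals (RefSeq, GRCm38.p6, minus strand, chr1:193507503-193507524 for the 5p strand and chr1:193507467-193507488 for the 3p strand).
mmu-miR-205-5p: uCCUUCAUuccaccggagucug
mmu-miR-205-3p: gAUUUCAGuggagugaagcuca

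The authors deposited RMA values on the log2 scale, so a difference of 1 is a 2-fold change. Each probe set has its own brightness, so levels of single genes were not ranked against each other. The median gene (6.88) serves only as a rough mark of dim signal, since the table has no detection calls. All 10 chosen probe sets lay above it. Epithelial identity was checked with keratins of the basal layer and the bulge: Krt15 was at 13.83 and 14.05 in KO cells, against 13.62 and 13.78 in WT cells, near the top of the scale (14.56). Krt14, a basal keratin, was at 13.65 and 13.73 in KO cells, against 13.54 and 13.57 in WT cells. The 13 measured basal keratinocyte markers had a summed linear level of 54800 and 51500 on the KO arrays and 49700 and 47700 on the WT arrays. On WT 1 the dermal fibroblast markers described below reached 46900. These keratins alone do not show how pure the sort was. Of 17 HFSC markers 11 were at or above the median gene, and Fgf18, Krt24, Dio2, Ltbp2, Wif1 and Angptl7 were below it. None of the 17 passed between KO and WT cells. 6 had higher and 11 lower means in KO cells, against 9631 and 8195 of all 18193 genes. Dio2 alone had an unadjusted p under 0.05 (0.25, SE 0.05, limma unadjusted p = 0.012), against 1.88% of all genes. Dio2 and Krt15 had both KO arrays above both WT arrays, and no marker the reverse, against 8.20% and 5.70% of all genes. The arrays differed in Xist (-7.88, KO minus WT) and the Y-linked Eif2s3y (6.63), the 2 genes that passed the test, so KO and WT arrays differ in sex-linked RNA as well as in genotype label. In every difference between KO and WT given here, genotype and sex cannot be told apart. Of 11 measured genes of the differentiated epidermis, 10 had higher means in KO cells, against 9631 of all 18193 genes. In 4 of the 11 both KO arrays were above both WT arrays, against 8.20% of all genes, and none passed. Krt1, a keratin of suprabasal cells, was at 11.37 and 11.31 in KO cells, against 10.32 and 9.86 in WT cells (1.25, SE 0.19, limma adjusted p = 1). The 11 genes had a summed linear level of 14500 and 14700 on the KO arrays and 10700 and 9140 on the WT arrays. The part of that level in the values of the 10 factors was not tested. Higher means in KO cells were not particular to this list. They were seen in 9 of 13 basal keratinocyte markers and 11 of 13 hair matrix and inner root sheath markers. Both KO arrays were above both WT arrays in 5 and 3 of these, and none passed. The median differences were 0.13 and 0.14, against 0.09 for the differentiated epidermis. Dermal fibroblast markers had a summed linear level of 25400 and 13400 on the KO arrays and 46900 and 10400 on the WT arrays. The level on WT 2 was below that of both KO arrays. Of the 14 measured, 13 were highest on WT 1, against 4656 of all 18193 genes with ties counted. In sorted bulk RNA, fewer cells of a type and less RNA per cell cannot be told apart.

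None of the 10 factors passed the test between KO and WT cells. All had an adjusted p of 1 (limma with Benjamini-Hochberg adjustment over 18193 genes), and no member had an unadjusted p under 0.05. Over all genes 0.0110% passed and 1.88% were under 0.05 without adjustment. 5 factors had higher and 4 lower means in KO cells, and Tcf7l1 was equal. The differences ran from -0.16 to 0.26, with a median of 0.01, against a median of 0.0081 over all genes. The median absolute difference was 0.06 for the 10 factors and 0.07 for all genes. With 2 arrays per group a missed threshold does not show that levels were alike, so the 95% interval of the difference is given for each factor the text turns on.

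**Figure D1:**
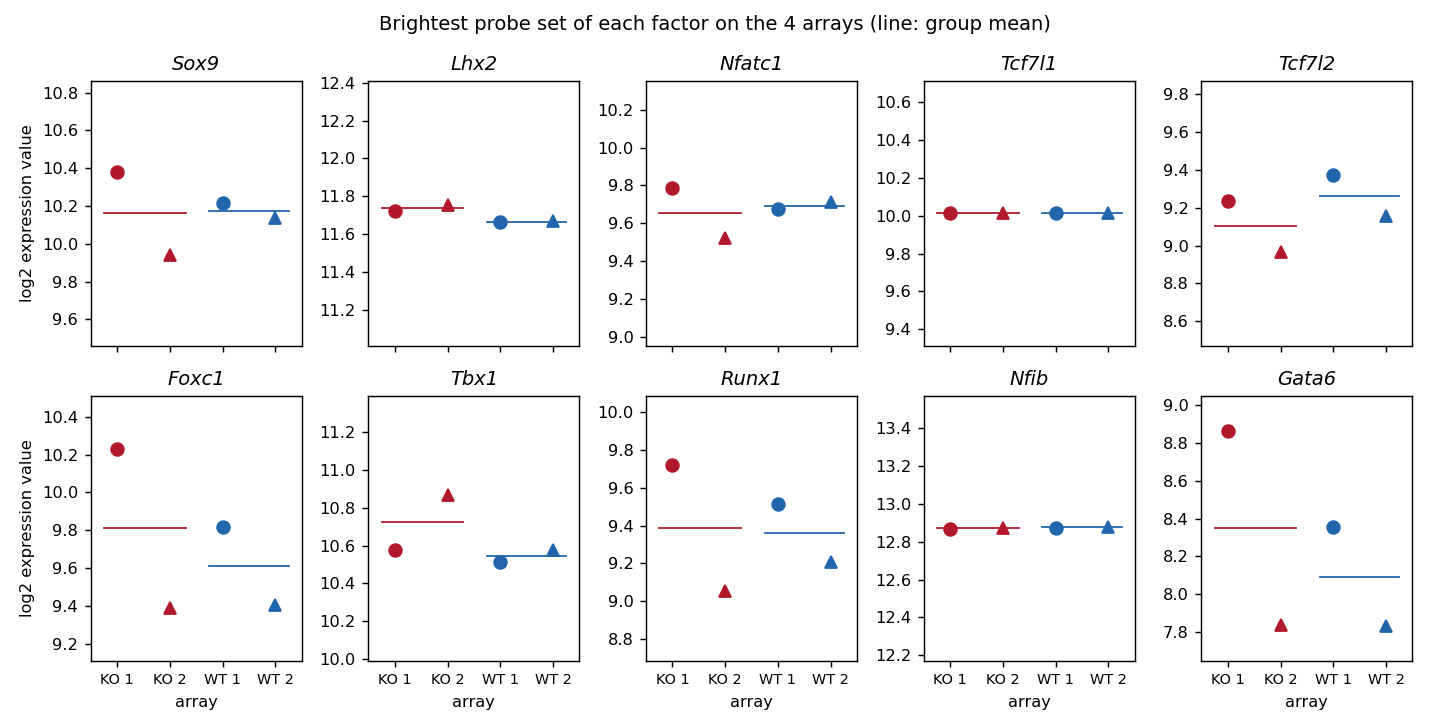
Log2 expression value (y axis, 1.4 log2 units in every panel) of the brightest probe set of each of the 10 factors on KO 1, KO 2, WT 1 and WT 2 (x axis), with red for KO, blue for WT, circles for number 1, triangles for number 2 and a line at each group mean. Lhx2 and Tbx1 have both KO arrays above both WT arrays, and Foxc1, Runx1 and Gata6 are high on the 2 arrays numbered 1.

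Among the factors that specify the stem cell, Sox9, an HMG-box protein needed to form and keep the stem cell pool, was at 10.38 and 9.94 on the KO arrays and 10.22 and 10.14 on the WT arrays. The WT arrays lay between the KO arrays. KO cells averaged 10.16 ± 0.31 and WT cells 10.18 ± 0.06 (SD, n = 2 each), a difference of -0.01 (95% interval -0.59 to 0.56, limma adjusted p = 1). A second bright probe set of Sox9 read 10.24 and 9.91 in KO cells and 9.78 and 9.92 in WT cells (0.23), and a dim one differed by 0.17. The sign of the Sox9 difference thus depended on the probe set.

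Lhx2, a LIM-homeodomain protein that restrains follicle stem cells from differentiation, varied little over the arrays. It read 11.72 and 11.76 on the KO arrays, against 11.66 and 11.67 on the WT arrays. The groups did not overlap, but the difference was only 0.07 (SE 0.04, 95% interval -0.05 to 0.20, limma adjusted p = 1), which is 1.05-fold. Non-overlap with KO above was seen in 2 of the 10 factors, Lhx2 and Tbx1, and in 8.20% of all genes. No factor had both KO arrays below both WT arrays, which was seen in 5.70% of all genes.

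Tcf7l1 and Tcf7l2 encode HMG-box partners of beta-catenin that repress WNT target genes when beta-catenin is absent. Tcf7l1 had the value 10.01 on all 4 arrays, equal to the last deposited digit. Its SE of 0.04 therefore comes wholly from the spread of other genes. In all, 10 of the 34 member probe sets had the same value on at least 2 arrays, as did 45.2% of the 34945 probe sets with 1 symbol. Equality on all 4 arrays was rarer, in 1 of the 34 and in 811 of the 34945. Exact equality is thus a feature of the deposited table. A second probe set of Tcf7l1 did vary, with 9.44 and 9.78 in KO cells and 9.62 and 9.68 in WT cells (-0.05), and the KO arrays enclosed the WT arrays.

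Tcf7l2 was the member with the lowest difference. It read 9.24 and 8.97 on the KO arrays and 9.37 and 9.15 on the WT arrays, so that each KO array was below the WT array of its number while the groups overlapped. The difference was -0.16 (SE 0.14, 95% interval -0.61 to 0.29, limma adjusted p = 1). It was -0.29 without KO 1, -0.03 without KO 2, -0.05 without WT 1 and -0.27 without WT 2. All 4 of its probe sets had a lower mean in KO cells, from -0.25 to -0.01. All 4 were also higher on both arrays numbered 1 than on both numbered 2, against 21.2% of all probe sets. All 4 were highest on WT 1, the array with the highest fibroblast markers, against 9305 of 34945 probe sets with ties counted. The part of fibroblast RNA in the Tcf7l2 values was not tested.

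Nfib, a nuclear factor I protein that acts in stem cells of the follicle on both the epithelial and the melanocyte lineage, hardly varied in its brightest probe set. The values were 12.87 and 12.88 on the KO arrays and 12.88 and 12.88 on the WT arrays, a difference of -0.0053 (95% interval -0.12 to 0.11). Of its 7 probe sets 5 had a higher and 2 a lower mean in KO cells. Their differences ran from -0.10 to 0.21, and the highest belonged to the dimmest, at 6.56 and 6.97 in KO cells and 6.38 and 6.72 in WT cells. None of the 7 separated the groups.

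Of the factors tied to quiescence, Nfatc1, a calcineurin-dependent factor that represses Cdk4 in the bulge, showed the clearest disagreement between probe sets. The brightest read 9.78 and 9.52 in KO cells, against 9.67 and 9.71 in WT cells, and the groups overlapped (-0.04, 95% interval -0.40 to 0.32, limma adjusted p = 1). A less bright probe set read 8.91 and 9.01 in KO cells, against 8.65 and 8.15 in WT cells. Both KO arrays were above both WT arrays there, by 0.26 in number 1 and 0.86 in number 2. That difference of 0.56 (SE 0.21, 95% interval -0.11 to 1.23) had the smallest unadjusted p of the 34 member probe sets, 0.077, and an adjusted p of 1 (limma over 34945 probe sets, none of which passed and 2.03% of which had an unadjusted p under 0.05). The 3 remaining Nfatc1 probe sets differed by 0.03, -0.07 and -0.02 with overlapping groups. Of all 34 member probe sets 3 had both KO arrays above both WT arrays and none the reverse, against 7.62% and 5.85% of all probe sets.

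Foxc1, a forkhead factor that reinforces quiescence and acts on Nfatc1 in the bulge, varied mainly with the array number. It read 10.23 and 9.39 on the KO arrays and 9.82 and 9.40 on the WT arrays. The KO arrays enclosed the WT arrays, and both arrays numbered 1 were above both numbered 2. The difference of 0.20 between the genotypes (SE 0.38, 95% interval -0.998 to 1.39, limma adjusted p = 1) rested on KO 1: it was 0.41 in number 1 and -0.02 in number 2, and was -0.22 without KO 1 and 0.62 without KO 2. It was also -0.0093 without WT 2. The other probe set of Foxc1 gave 9.05 and 8.02 in KO cells and 8.75 and 7.80 in WT cells (0.26), with the same order of the numbers.

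Tbx1, a T-box factor linked to stem cell self-renewal, had 1 probe set. It read 10.58 and 10.87 on the KO arrays, against 10.51 and 10.58 on the WT arrays. Both KO arrays were above both WT arrays, though KO 1 exceeded WT 2 by less than the rounding shown. The difference was 0.18 (SE 0.13, 95% interval -0.22 to 0.58, limma adjusted p = 1), and it was 0.33 without KO 1 and 0.03 without KO 2.

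Runx1, which promotes entry of the stem cells into growth and represses Cdkn1a, read 9.72 and 9.05 on the KO arrays and 9.51 and 9.21 on the WT arrays. The WT arrays again lay between the KO arrays. The difference was 0.02 (SE 0.30, 95% interval -0.91 to 0.96, limma adjusted p = 1), and without single arrays it ran from -0.31 (without KO 1) to 0.36 (without KO 2). Its 5 other probe sets differed by -0.04 to 0.11, and their groups overlapped.

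Gata6, a zinc-finger factor of the upper follicle and sebaceous duct, had the widest range of the 10 factors, 1.03. It read 8.87 and 7.84 on the KO arrays and 8.35 and 7.83 on the WT arrays. KO 1 stood 0.51 above WT 1, while KO 2 and WT 2 were 0.0080 apart. The difference of 0.26 (SE 0.47, 95% interval -1.204 to 1.723, limma adjusted p = 1) became -0.25 without KO 1, -0.0014 without WT 2, 0.77 without KO 2 and 0.52 without WT 1. Its other probe sets differed by 0.21 and 0.11, and each had equal values on both WT arrays.

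**Figure D2:**
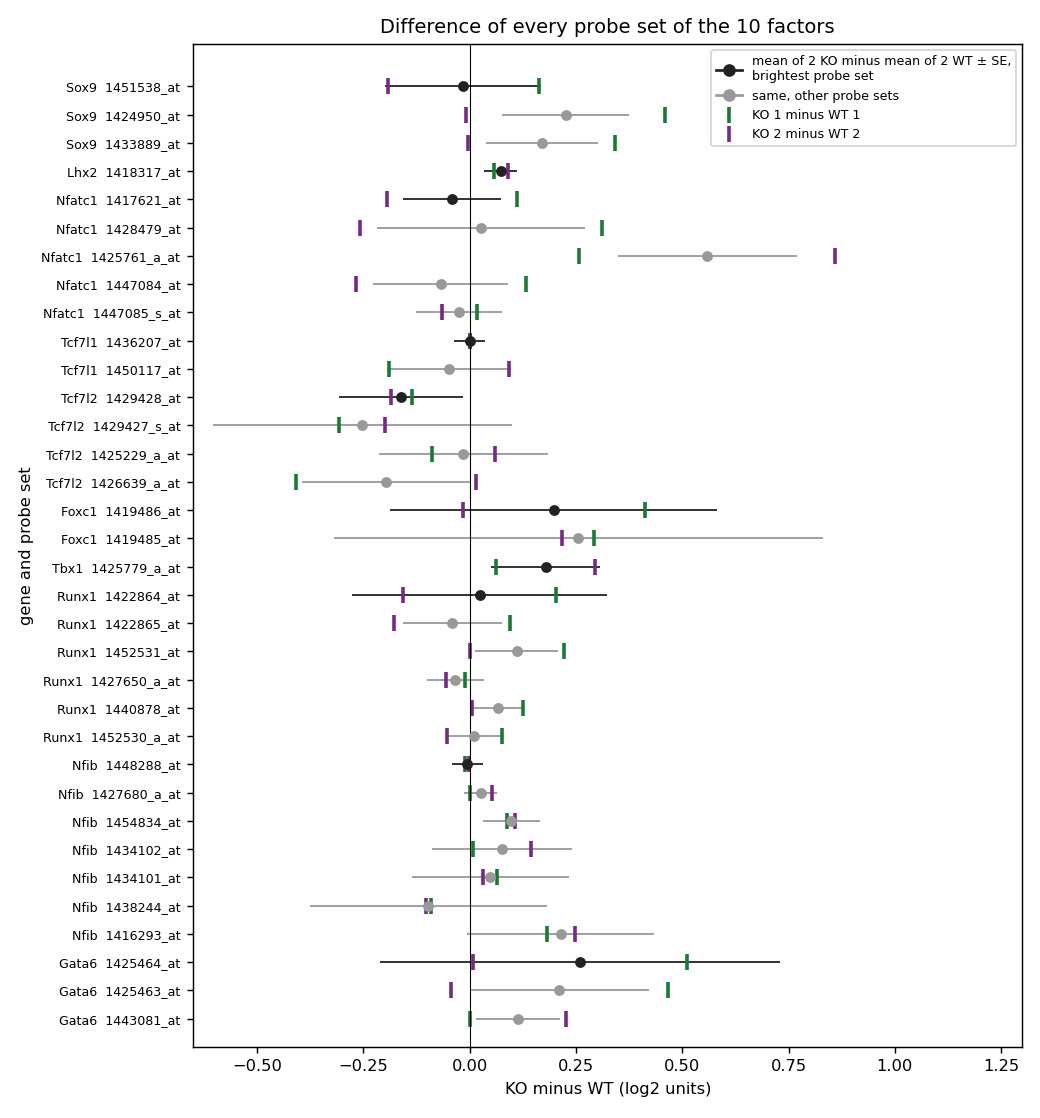
Difference KO minus WT in log2 units (x axis) of all 34 probe sets of the 10 factors (y axis). Points are the mean of 2 KO minus the mean of 2 WT arrays with the limma SE (black for the brightest probe set of a gene, grey for others), and ticks are the differences between arrays of the same number (green for 1, purple for 2). A less bright probe set of Nfatc1 stands farthest to the right at 0.56, and all 4 of Tcf7l2 have means left of 0.

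Several factors differed more between the arrays numbered 1 and those numbered 2 than between genotypes. On average over genotypes, number 1 exceeded number 2 by 0.77 for Gata6, 0.63 for Foxc1, 0.49 for Runx1, 0.26 for Sox9 and 0.24 for Tcf7l2. In these 5 both number 1 arrays were above both number 2 arrays, as in 22.0% of all genes, and in none were both below, as in 21.7% of all genes. Tbx1 went the other way by -0.18 with overlapping numbers. Among the 34 probe sets 14 had number 1 above and 3 had it below, against 21.2% and 20.9% of all probe sets. Number 1 was above in 2 of 2 probe sets of Foxc1 and 4 of 4 of Tcf7l2. For Sox9, Runx1 and Gata6 it was above in 1 of 3, 1 of 6 and 1 of 3, and 1 Runx1 probe set had it below. The Affymetrix control for the 5′ end of 18S ribosomal RNA also separated the numbers, at 11.51 on KO 1 and 11.59 on WT 1, against 9.46 on KO 2 and 9.40 on WT 2. The 5′ controls of beta-actin and Gapdh separated them in the opposite direction, with beta-actin at 13.62 on KO 1 and 13.60 on WT 1, against 14.03 on KO 2 and 13.87 on WT 2. That of Gapdh was at 12.54 on KO 1 and 12.72 on WT 1, against 13.10 on KO 2 and 13.02 on WT 2. The fibroblast sums given above were higher on number 1 too. The part of any of these in the values of these factors was not tested, and the labels do not say what the numbers share.

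**Figure D3:**
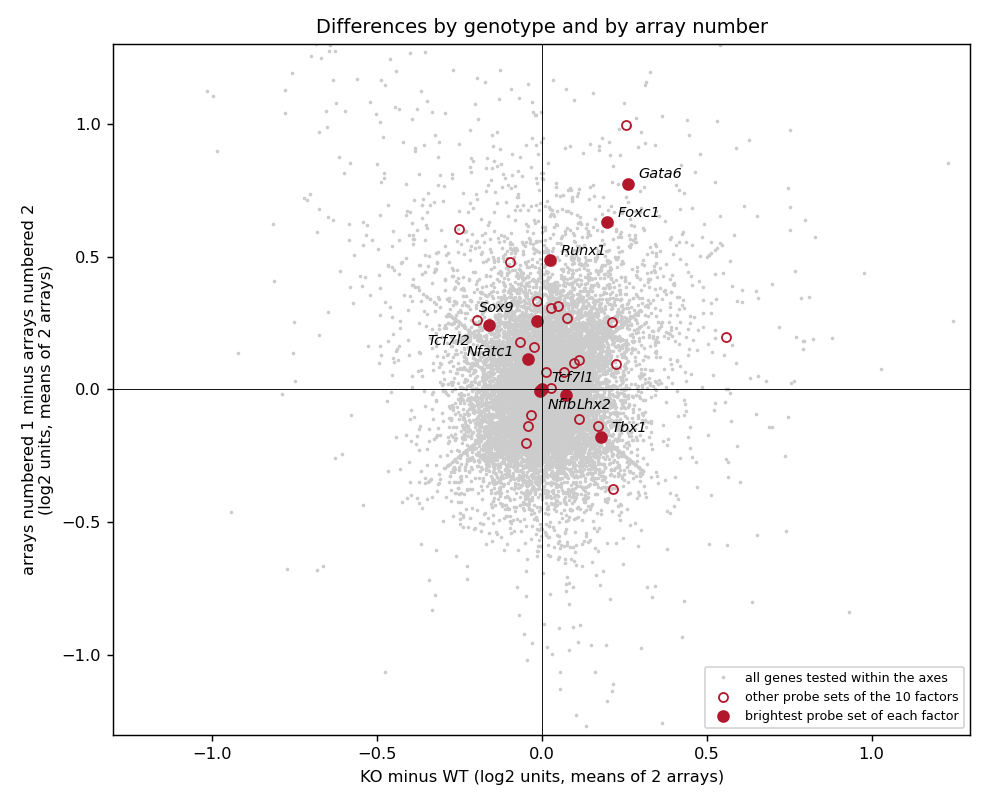
Each point sets the difference KO minus WT (x axis, log2 units) against the difference of arrays numbered 1 minus arrays numbered 2 (y axis, log2 units), with red filled points for the brightest probe set of each factor, open red points for their other probe sets and grey points for all genes inside the axes. Gata6, Foxc1 and Runx1 lie higher above the horizontal line (0.77, 0.63 and 0.49) than they lie right of the vertical line (0.26, 0.20 and 0.02).

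Gata6 and Foxc1, the members of widest range, were close to each other in their pattern over the 4 arrays. Likeness was the summed absolute difference of mean-centred log2 values, taken over the 4 arrays and among 403 genes with a range of at least 1. For Foxc1 the nearest genes were Lyve1 (0.28), Gata6 (0.29) and Ripply3 (0.41). For Gata6 they were Lyve1 (0.10), Asb13 (0.14) and Tppp (0.27). With 4 arrays many genes can share a pattern, and these distances are given as a description.

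Promoters, as 250 bases before to 50 after a RefSeq start, were searched for short words bound by the families of these factors, since members are known to act on one another's genes. Of the 10 genes, 6 (Lhx2, Tcf7l1, Foxc1, Tbx1, Runx1 and Tcf7l2) had 10 promoters in the set used here. Sox9 and Nfib had no entry. Nfatc1 and Gata6 were left out by a filter on chromosome, which was not applied to the promoters of all genes. The RUNX word TGTGGT, on either strand, was in 2 of the 10, at Foxc1 and at the upstream start of Runx1, and in 16.8% of all 32851 promoters. The brightest probe sets of Foxc1 and Runx1 were higher on both arrays numbered 1, as were those of Gata6, Sox9, Tcf7l2 and 22.0% of all genes. For Runx1 this held in 1 of 6 probe sets. A link between Runx1 and the Foxc1 promoter was not tested. The 2 promoters are shown for that shared pattern, 5′ to 3′ with the word or its reverse complement in capitals. At Foxc1 it began 188 bases before the start (chr13:31806396-31806695, GRCm38.p6, plus strand), and at Runx1 it began at bases 29 and 37 of the transcript (chr16:92826025-92826324, minus strand).
Foxc1: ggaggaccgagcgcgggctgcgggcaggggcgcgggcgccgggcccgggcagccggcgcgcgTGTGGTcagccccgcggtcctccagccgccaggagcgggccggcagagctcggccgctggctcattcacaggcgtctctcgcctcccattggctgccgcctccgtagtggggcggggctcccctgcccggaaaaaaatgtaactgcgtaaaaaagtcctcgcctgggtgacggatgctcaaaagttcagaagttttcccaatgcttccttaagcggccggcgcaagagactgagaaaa
Runx1: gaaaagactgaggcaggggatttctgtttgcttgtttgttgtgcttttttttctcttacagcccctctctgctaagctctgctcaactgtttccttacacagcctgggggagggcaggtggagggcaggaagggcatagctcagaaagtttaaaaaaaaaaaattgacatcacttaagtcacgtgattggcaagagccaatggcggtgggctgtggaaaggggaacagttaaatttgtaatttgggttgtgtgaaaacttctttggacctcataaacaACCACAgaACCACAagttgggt

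The other words were in few of the 10 promoters. The GATA word AGATAA was in 1, at Tcf7l2, and in 11.2% of all promoters. The SOX word ACAATG was in 1, also at Tcf7l2 (12.6%). The NFAT word GGAAAA was in 2, at Foxc1 and Lhx2 (23.4%). The TCF/LEF word CTTTGA (16.0% of all promoters), the forkhead word GTAAACA (3.65%), the LIM-homeodomain word TAATTA (5.29%), the T-box word AGGTGTGA (1.28%) and the palindromic NFI word (0.0365%) were in none of the 10. A match is a description of letters and not a binding site.

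Relatives of the factors within their DNA-binding families were examined next. Of 59 listed, 55 were measured and 14 lay above the median gene. None passed the test in either direction, none had an unadjusted p under 0.05, and the median difference was -0.01 against 0.0081 over all genes. 1 of the 55 had both KO arrays above both WT arrays and 3 the reverse, against the 8.20% and 5.70% of all genes. The relative of Nfib with the smallest p was Nfia, another nuclear factor I gene, at 9.55 and 9.42 in KO cells, against 9.76 and 9.61 in WT cells (-0.21, SE 0.09, limma adjusted p = 1). The T-box genes Tbx2 (0.34) and Tbx21 (-0.14) were dim, between 3.604 and 4.11.

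Partners and cofactors were measured for all 31 genes listed, among them beta-catenin, the Groucho/TLE corepressors that bind TCF proteins, calcineurin subunits that activate NFAT proteins, and LIM-domain partners of LHX2. None passed and none had an unadjusted p under 0.05 (median 0.00). Ldb1, the adaptor that joins LIM-homeodomain proteins, was at 8.68 and 8.75 in KO cells, against 8.77 and 8.91 in WT cells (-0.12, SE 0.07). The LIM-only genes Lmo2 and Lmo1 differed by 0.25 and -0.16. Ctnnb1, which encodes beta-catenin, differed by 0.04, and Cbfb, the partner of RUNX1, by 0.07.

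Genes that published work places under these factors in the follicle gave no call either. Of 18 listed 17 were measured, and none passed or had an unadjusted p under 0.05 (median -0.02). 3 were higher and 13 lower in mean in KO cells, against 9631 higher and 8195 lower of all 18193 genes. Krt15, a bulge keratin, differed by 0.24 (SE 0.12), and its groups, given above, did not overlap. Fgf18, a growth factor that holds the bulge at rest, differed by -0.23 (SE 0.15) and the R-spondin receptor Lgr5 by -0.11 (SE 0.11). Cdk4, the cell cycle kinase gene under NFATC1, differed by -0.10 (SE 0.17), and Cdkn1a, the p21 gene under RUNX1, by -0.06 (SE 0.19).

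Other transcription factors of the follicle epithelium (34 of 35 measured, 31 above the median gene) had a median difference of 0.03, with none past the test and none with an unadjusted p under 0.05. Tfap2b, an AP-2 factor, was at 9.85 and 9.76 in KO cells, against 9.58 and 9.66 in WT cells (0.18, SE 0.06). Bnc1, a zinc-finger factor of basal keratinocytes, differed by 0.21 (SE 0.10) and the homeobox gene Meis2 by -0.24 (SE 0.10). Over the whole list 2 genes had both KO arrays above both WT arrays and 2 the reverse, 4 of 34 without overlap, against 13.9% of all genes.

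**Figure D4:**
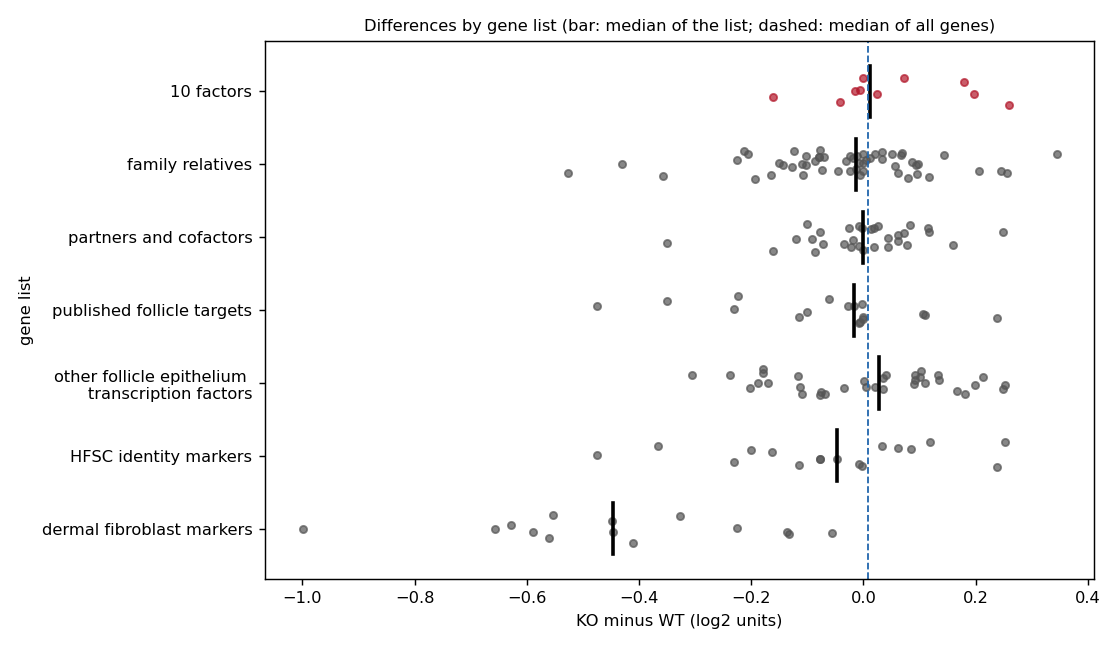
Difference KO minus WT in log2 units (x axis) of each measured gene in 7 lists (y axis), with points shifted up or down only to separate them, a bar at the median of each list and a dashed line at the median of all genes (0.0081). The 10 factors lie between -0.16 and 0.26. All 14 dermal fibroblast markers lie below 0 with a median of -0.45, against 8195 of all 18193 genes below 0. Of these 14 markers 13 were highest on WT 1, against 4656 of all genes with ties counted, and none separated the groups. Their summed linear level was 10400 on WT 2, below 25400 and 13400 on the KO arrays.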

How the data were processed

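Messenger RNA of 4 sorted cell samples was measured on 1-colour Affymetrix mouse arrays. The authors deposited log2 expression values, and the submitters' processing notes name RMA; its version and the probe set definition were not given in the sources used here. RMA sets all arrays to 1 distribution, so a shift of all genes cannot be seen, and without detection calls changes of dim probe sets are understated. The number of arrays limits the precision.

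Genes were named from GEO's platform annotation, with symbols updated by gene identifier from the GRCm38.p6 RefSeq table (34741 of 34945 probe sets with 1 symbol matched). Probe sets with several symbols (932), none here (9160) or controls (64) were left out. A two-sided limma fit (version 3.58.1, R 4.3.3, lmFit then eBayes) without covariate or filter compared KO with WT over 18193 genes or 34945 probe sets, at an adjusted p of 0.05 (Benjamini-Hochberg). SE and 95% intervals are limma's moderated ones. The fit was tested on simulated data.

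The members and gene lists were chosen with earlier results of these data known. Named genes are the members, up to 3 genes of smallest p per list, Xist, Eif2s3y and the genes nearest in pattern to the 2 members of widest range; Cdk4, Cdkn1a, Ctnnb1 and Cbfb were added after their values were seen, for their tie to a member, as were Krt24, Ltbp2, Wif1 and Angptl7, for lying below the median gene. Alternatives were 2 further normalizations, only genes above the median level, averaged probe sets, single probe sets, other eBayes settings, a replicate block and leaving out each array.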

Additional observations from a re-analysis of the deposited data

How the results depend on the processing

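No factor passed under any alternative that kept 2 arrays per group (limma), and none had an unadjusted p under 0.05 there. Fits that leave out an array keep a single array in a group, so only their differences are given. Signs of small differences did change. With the mean of probe sets they went to 0.13 for Sox9, 0.091 for Nfatc1 and 0.051 for Nfib. That mean takes in the other probe sets of these genes. Those of Sox9 had higher means in KO cells (0.23 and 0.17). Those of Nfatc1 (0.56, 0.03, -0.07 and -0.02) and Nfib (-0.10 to 0.21) went both ways. With quantile normalization again the difference of Runx1 went to -0.0030, and the cause of that change was not tested. Without single arrays the difference ran from -0.23 to 0.20 for Sox9, -0.17 to 0.092 for Nfatc1, -0.22 to 0.62 for Foxc1, -0.31 to 0.36 for Runx1 and -0.25 to 0.77 for Gata6, and kept its sign but not its size for Tcf7l2 (-0.29 to -0.03) and Tbx1 (0.03 to 0.33). It was 0.06 to 0.09 for Lhx2 and -0.010 to -0.00043 for Nfib. Over all genes 2 passed. The count was 4 with median centring and 1 without dim genes (fewer genes tested, and Eif2s3y, at a mean of 6.27, was left out). It was 0 with the mean of probe sets, with every probe set by itself and with the replicate block (limma). Where all 18193 genes were tested with 2 arrays per group, 231 to 879 had an unadjusted p under 0.05 (limma). The labels do not say what a number shares, so numbers were not used as pairs; deviations of same-numbered arrays correlated at r = 0.56 across genes, and the block gave 879 genes with an unadjusted p under 0.05 and no call among the factors.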
